A study of Danio rerio with 4 samples.

Results

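The claudin genes of zebrafish skin were described by cell class and by stage of wound healing. They were taken as all rows of the deposited count tables whose gene symbol starts with cldn, which gave 34 of 25432 genes. Of these, 29 had 20 or more unique molecular identifiers (UMIs, each standing for 1 captured transcript) over the deposited cells of the 4 libraries and are described here, while cldn10a, cldnj, cldn10l2, cldn15b and cldn2 stayed under that number. Skin of adult wild-type zebrafish was collected from wounds at 2, 4 and 6 days post wounding (dpw) with a biopsy punch of 4 mm diameter, and from unwounded fish without treatment by scraping. Each stage was 1 pool of 3 fish and 1 droplet-based single-cell library that reads the 3' ends of transcripts. Stages could therefore be compared only with intervals that cover counting error. Between wounds and unwounded skin, wounding and way of collection cannot be told apart. Classes of cells, in contrast, could be compared over the 4 libraries.

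Claudins are small proteins that cross the membrane several times and form the strands of tight junctions, which close the gap between neighbouring epithelial or endothelial cells and set which ions and solutes pass through it. Their cytoplasmic tails bind scaffold proteins such as the zonula occludens (ZO) proteins, which link the strands to the actin cytoskeleton. In fish skin, which separates body fluids from the surrounding water, the outermost keratinocytes carry the tight junctions of the barrier, while basal keratinocytes sit on the basement membrane and renew the layers above. Endothelial cells and myelinating glia use claudins of their own.

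After filtering, 29185 of 36239 cells were kept, with 5802 to 8314 cells and a median of 3979 to 4190 UMIs per cell in each library. Cells were clustered without the claudins and without their junction partners, and clusters were named from marker genes, with "-like" for each name. The keratinocyte-like class held 7550 cells in 8 clusters. Cluster 4 (1355 cells) carried markers of the basal layer and clusters 16 and 22 (1446 cells) carried markers of the superficial layer. The other 5 clusters were given no layer and are called by number and leading genes, namely cluster 6 (krt96, krt97, icn2), cluster 7 (ptgdsb.1, ptgdsb.2), cluster 10 (jac4, krt17, krtt1c19e), cluster 13 (genes of cholesterol synthesis such as cyp51 and msmo1) and cluster 24 (tmprss4a, eppk1). Cluster 17 (799 cells) carried the mucous markers agr2, muc5.1, muc5.2 and foxa3, which made it the mucous-like class, but it held cells of several kinds and is called by its number here. In a clustering without integration 378 of its cells lay in a cluster led by avil, hmx3a and adgrf3a that had only 1 mucous marker, 166 in the cluster that carried the mucous markers, 116 in a cluster led by capga and atoh1a and 60 in a cluster led by aldh1a3 and stra6. There were 1146 endothelial-like, 4324 fibroblast-like and 726 glial-like cells. The glial-like class carried 9 markers of its own list and 4 of the pigment list, and no cluster was named as pigment cells. The libraries shared 120 cell barcodes, and doublets were not removed. Levels are given in CPM, the UMIs of a gene per 1000000 UMIs summed over the cells of a class in 1 library, and were not divided by gene length because 1 end of each transcript was counted.

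Most claudin UMIs lay in cells of the epidermis in these libraries, 720108 of them in keratinocyte-like cells. Kept cells held 862425 claudin UMIs, and 6 genes (cldnb, cldni, cldna, cldne, cldn7b and cldnh) held 93.1% of them. Of the 29 genes, 15 had the largest share of their UMIs in keratinocyte-like cells, 6 in fibroblast-like cells, 2 in endothelial-like cells, and 1 each in cluster 17 and glial-like cells. For cldnd, cldng and cldn10b the largest share was in cells of unnamed clusters, and cldn15lb had equal shares in fibroblast-like and neutrophil-like cells. Keratinocyte-like cells held 88532587 of the 210091198 UMIs of all genes, so a gene spread evenly over the cells would also have its largest share there. Of the 15 genes, cldn12, cldn17 and cldnd1a had only 47.2, 38.8 and 32.8% of their UMIs in that class. The count of 15 was not set against all genes. Cldnb was the most abundant with 351935 UMIs, followed by cldni with 166245, cldna with 116778, cldne with 80013, cldn7b with 56855 and cldnh with 31136 UMIs. All claudins together reached 14546 CPM in cluster 24, 11501 CPM in superficial, 8512 CPM in cluster 17, 5559 CPM in basal and 2791 CPM in endothelial-like cells. The lowest totals of a named class, 255 CPM in macrophage-like and 309 CPM in neutrophil-like cells, were below the 809 CPM of red blood cell-like cells, which should carry no tight junctions and serve here as a gauge of free RNA. This gauge was not matched for depth, as its cells had a median of 790.5 UMIs, against 8446.5 in macrophage-like cells. Free RNA can take a larger share of the CPM of shallow cells. A level below the gauge is thus not shown to be free RNA. Within the macrophage-like class, cluster 14 (median 874 UMIs) had 688 CPM and cluster 2 (median 9846 UMIs) 227 CPM.

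**Figure D1:**
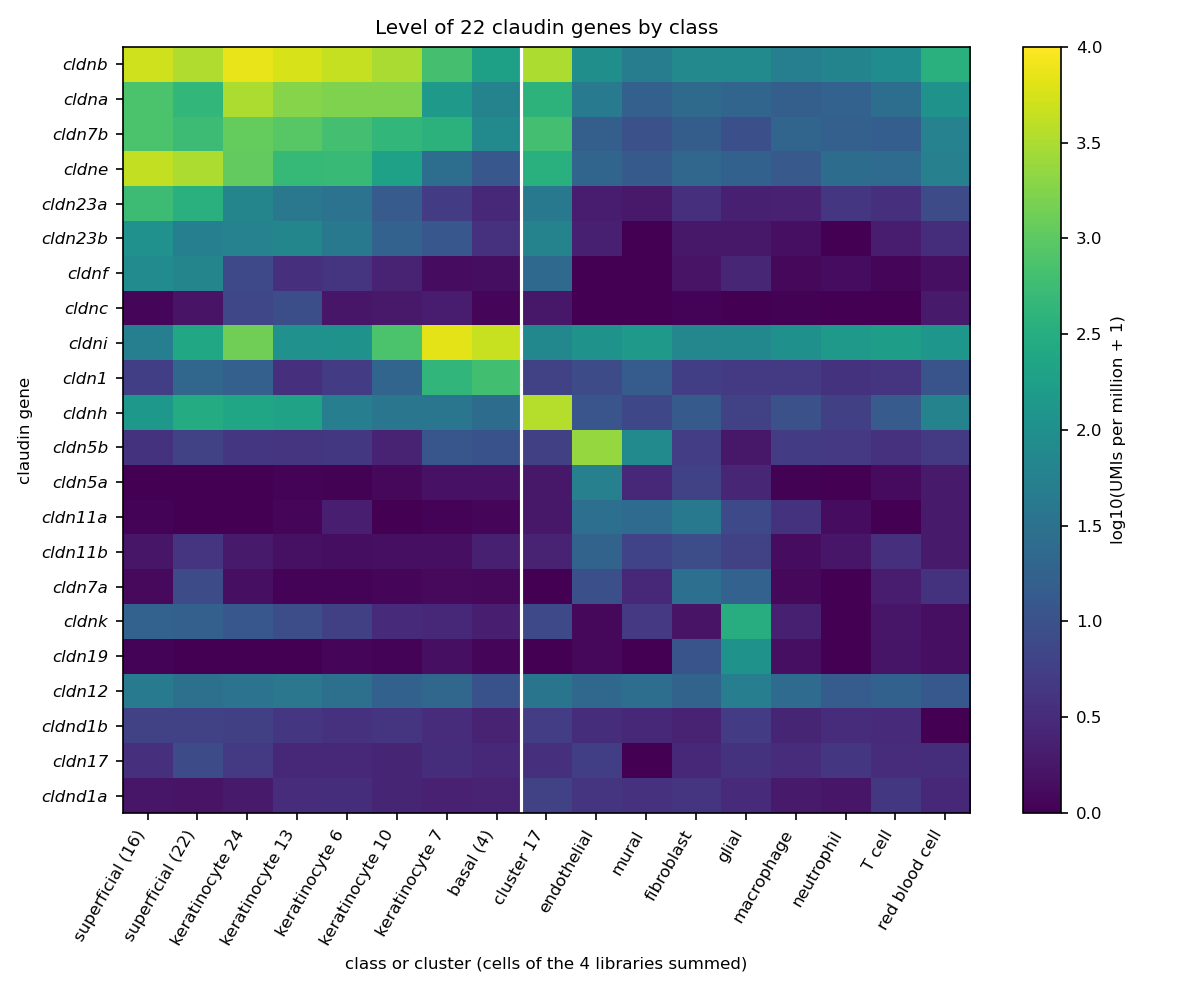
Level of the 22 claudin genes with 200 or more UMIs in kept cells, as log10(CPM + 1) over the summed cells of the 4 libraries. Rows are genes and columns are the 8 keratinocyte-like clusters (left of the white line) and the other named classes. The genes cldnb, cldna, cldn7b and cldne fill the columns of the superficial and numbered clusters, cldni and cldn1 those of the basal cluster and cluster 7, cldnh the column of cluster 17, cldn5b the endothelial column and cldnk the glial column.

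The superficial and basal keratinocyte-like cells carried different claudins. Cldne and cldn23a were the genes with the greatest superficial excess among the claudins tested, and cldni and cldn1 were those with the greatest basal excess. Cldne, which is expressed in the periderm of zebrafish embryos, had 5031, 3088, 2886 and 4386 CPM in superficial cells of unwounded skin and wounds at 2, 4 and 6 dpw, against 19.8, 7.54, 9.33 and 13.7 CPM in basal cells. Cldn23a, a claudin of little known function in fish, had 681, 396, 336 and 514 CPM in superficial cells, against 3.22, 1.32, 1.70 and 1.8 CPM in basal cells. The classes lay far apart in each library for both genes. The basal levels of both were below those in red blood cell-like cells in each library, which were 110, 39.2, 24.3 and 77.2 CPM for cldne and 30.8, 7.84, 2.86 and 3.03 CPM for cldn23a, so that the denominator of these folds did not exceed the gauge of free RNA. The log2 fold change of superficial over basal cells was 8.33 ± 0.16 for cldne (± SE, edgeR quasi-likelihood test over 4 libraries, adjusted p = 1.8e-07) and 7.95 ± 0.19 for cldn23a. However, cldn23a passed the filter on low counts only through the superficial cells and so had to come out higher, which makes its call a description. At an equal depth of 500 UMIs per cell, 72.1% of superficial cells had a cldne UMI, against 2.95% of red blood cell-like cells. Without thinning these shares were 93.1% and 4.77%, at median depths of 7004.5 and 790.5 UMIs.

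Cldnb, a claudin of zebrafish epidermis and lateral line, was abundant in most keratinocyte-like clusters other than the basal one. It had 5633, 3975, 4192 and 4771 CPM in superficial cells of the 4 libraries in order of stage, against 317, 167, 89.1 and 211 CPM in basal cells. Cldna had 612, 827, 890 and 667 CPM in superficial cells, against 97.5, 48.4, 19.9 and 87.1 CPM in basal cells. The values of cldnb and cldna in basal cells were below those of red blood cell-like cells in each library, which were 831, 210, 106 and 539 CPM for cldnb and 172, 51.0, 21.5 and 227 CPM for cldna. The log2 fold changes were 4.70 ± 0.23 for cldnb (adjusted p = 1.6e-06) and 3.73 ± 0.44 for cldna (adjusted p = 1.5e-04). The gene cldn7b, whose mammalian counterpart lies along the sides of epithelial cells as well as in tight junctions, had 822, 693, 625 and 655 CPM in superficial cells, against 198, 62.4, 33.9 and 59.0 CPM in basal cells, a log2 fold change of 3.30 ± 0.31. The genes cldn23b and cldnf were less abundant, with log2 fold changes of 5.04 ± 0.32 and 7.33 ± 0.37. Cldnf had 531, 102, 100 and 267 UMIs in superficial cells, against 2, 3, 0 and 0 UMIs in basal cells. It passed the filter on low counts only through the superficial cells, so its call is a description as well. The same may hold for cldn23b, whose call is best read as a description.

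Basal cells held cldni and cldn1 in place of these genes. Cldni had 65.2, 101, 41.7 and 94.2 CPM in superficial cells, against 6098, 4003, 3832 and 4938 CPM in basal cells. Cldn1, whose mammalian counterpart is required for the water barrier of the epidermis, had 4.89, 4.33, 6.1 and 9.66 CPM in superficial cells, against 554, 669, 618 and 596 CPM in basal cells. The superficial levels of cldni were below those in T cell-like cells (204, 144, 120 and 176 CPM) in each library. Those of cldn1 were below the levels in red blood cell-like cells (13.2, 15.7, 4.29 and 10.6 CPM) in each library other than 4 dpw. The log2 fold changes were -6.00 ± 0.24 for cldni (adjusted p = 7.7e-07) and -6.56 ± 0.23 for cldn1 (adjusted p = 4.0e-07). At 500 UMIs per cell, 80.9% of basal cells had a cldni UMI, against 8.70% of red blood cell-like cells, and 96.4% and 13.5% without thinning, at median depths of 6261 and 790.5 UMIs.

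**Figure D2:**
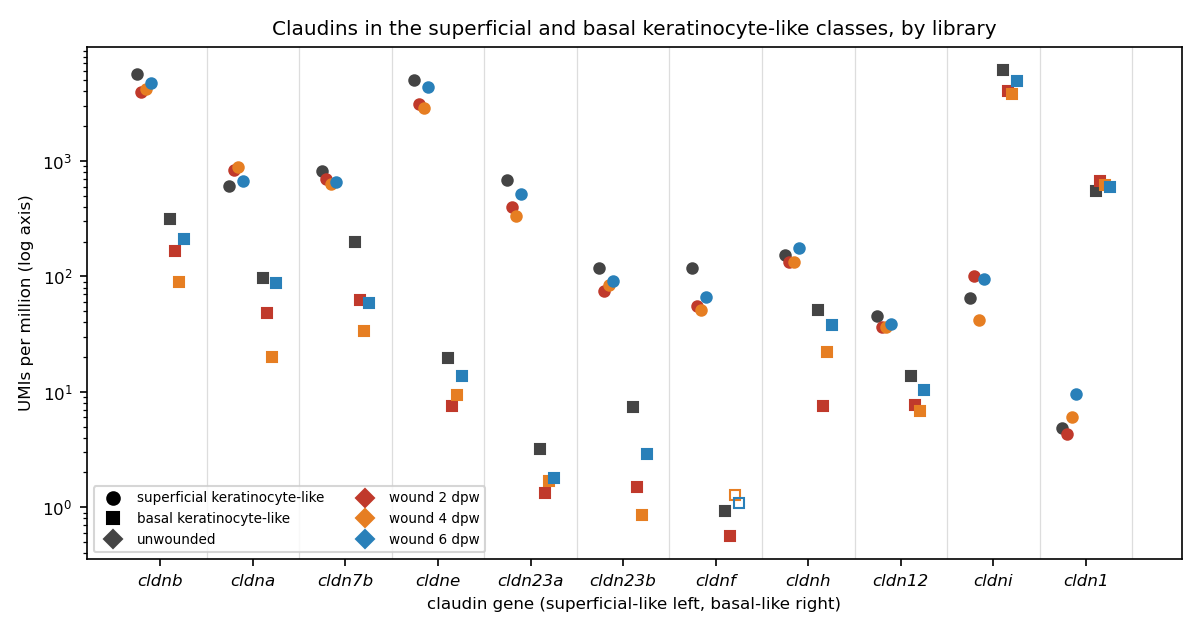
Level of 11 claudin genes in CPM (log axis) in superficial (circles, left) and basal (squares, right) keratinocyte-like cells, 1 point per library and coloured by library. Open symbols stand at the floor of 3 UMIs where a library had 0 UMIs. For the 9 genes on the left the circles lie above the squares in each library, and for cldni and cldn1 they lie below.

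Of the 34 claudins, 14 passed the filter on low counts in this comparison. Of these, 11 were higher and 3 lower in superficial than in basal cells, where 31.1% of all 8252 genes tested were higher and 28.7% lower (59.9% in either direction). The median log2 fold change of the 14 claudins was 3.52, against 0.012 over all genes tested. A gene that passed the filter only through the class in which it was high had to differ, so these counts describe the claudins and do not test them as a group. Among the claudins, cldn23a, cldnf and cldnk passed the filter only through the superficial cells. The same may hold for cldn23b, which was low in basal cells, and for cldnd1b, which had at most 4.99 CPM in any cluster. The calls of cldn23b and cldnd1b are therefore best read as descriptions too. The further genes that were higher were cldnk (log2 fold change 3.84), cldnh (2.58), cldn12 (2.06) and cldnd1b (1.69). The gene cldn5b was the third gene called lower, with a log2 fold change of -1.65 ± 0.61 (adjusted p = 0.045), but it had 0.222, 1.62, 1.02 and 7.93 CPM in superficial cells, against 0.919, 6.79, 22.9 and 8.63 CPM in basal cells, and the call was lost in 8 alternatives and kept in 5. It was lost without the replicate block, in single-cell classes (-1.07), without the 5% of cells with most UMIs, when the unwounded, 2 dpw or 4 dpw library was left out (-0.84 without 4 dpw), without cluster 22 and with cluster 7 counted as basal, over which its log2 fold change was -1.81 to -0.84.

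The keratinocyte-like clusters that were given no layer differed in which claudins they carried. Cluster 24 had the highest levels of cldnb, with 9739, 6271, 7130 and 6658 CPM by stage, of cldna, with 3894, 3487, 3014 and 2843 CPM, and of cldn7b, with 1684, 885, 1168 and 993 CPM. Cluster 13 followed for cldnb, with 7394, 4558, 4228 and 4926 CPM, so that superficial cells were not those with most cldnb or cldna. Cldne and cldn23a, in contrast, were highest in superficial cells, and cldne had 1566, 848, 623 and 1155 CPM in cluster 24. Cluster 7, which also carried 6 markers of the basal list, resembled basal cells in its claudins, with 8200, 5961, 5070 and 6913 CPM of cldni and 467, 440, 375 and 370 CPM of cldn1. Cluster 7 had more cldni and less cldn1 than basal cells in each library, so that basal cells were not those with most cldni. It differed from basal cells in cldn7b, with 642, 236, 203 and 293 CPM, and cldnb, with 988, 350, 507 and 707 CPM, each higher than in basal cells of the same library. These cluster levels are descriptions without a test. The gene cldnc had only 200 UMIs, of which 54.0% were in cluster 13.

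Other genes of the tight junction were listed as partners of the claudins. Of 33 symbols 32 were in the files, as pals1a is another name of mpp5a, and 26 were tested between superficial and basal cells, and 22 were higher, 2 lower and 2 not called, where 31.1% of all genes were higher and 28.7% lower. Their median log2 fold change was 2.71, against 0.012 over all genes tested, and the limit set by the filter on low counts holds for them as for the claudins. Those at the membrane included oclnb, 1 of the occludins, with 611, 414, 354 and 467 CPM in superficial cells, against 12.4, 0.943, 1.70 and 3.60 CPM in basal cells (log2 fold change 7.0 ± 0.43). The immunoglobulin-type adhesion genes igsf5a (8.67 ± 0.42) and cxadr (6.89 ± 0.34) and marveld2b, a tricellulin gene (5.90 ± 0.42), were higher as well. The scaffold genes cgnb (6.78 ± 0.32) and cgna (4.94 ± 0.27), which encode cingulins, and tjp1b (4.2 ± 0.30), which encodes a ZO-1 protein, rose with them, as did crb3b of the Crumbs polarity complex (7.43 ± 0.40). Among the Grainyhead-like transcription factors, grhl3 had 218, 197, 261 and 218 CPM in superficial cells, against 9.20, 5.47, 0.424 and 3.24 CPM in basal cells. The gene grhl2b went the other way, with 2.00, 2.16, 3.05 and 2.23 CPM in superficial cells, against 7.82, 14.1, 15.7 and 15.5 CPM in basal cells (log2 fold change -2.43 ± 0.27). The gene marveld1 was the other gene that was lower (-4.52 ± 0.37). The tricellular junction gene lsr (0.18 ± 0.15, adjusted p = 0.34) and the ZO-2 gene tjp2a (-0.36 ± 0.15, adjusted p = 0.066) were not called.

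Cluster 17 was set apart by cldnh. This gene had 3528, 2526, 3697 and 4294 CPM in cluster 17 of unwounded skin and wounds at 2, 4 and 6 dpw, against 134, 48.6, 38.9 and 84.5 CPM in keratinocyte-like cells. The log2 fold change was 5.08 ± 0.26 (edgeR quasi-likelihood test, adjusted p = 5.6e-08), and 57.8% of all cldnh UMIs were in cluster 17. With classes set from the markers of each single cell the log2 fold change was 0.72 and the call was lost (adjusted p = 0.24), while in the clustering without integration, where 251 cells formed the mucous-like class, it was 6.05. The mucous-like class from single-cell markers held 85, 190, 152 and 50 cells by stage, against 305, 118, 127 and 249 in cluster 17. It was thus not the same set of cells. At 500 UMIs per cell 56.3% of cluster 17 cells had a cldnh UMI, against 1.54% of red blood cell-like cells, and 72.0% and 2.59% without thinning, at median depths of 3980 and 790.5 UMIs. A further 96 cells of cluster 35, which was given no class and had il22ra2 and xcr1a.1 among its leading genes, had 2510, 2778, 1998 and 2966 CPM of cldnh. In superficial cells cldnh had 153, 134, 134 and 175 CPM.

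The kinds of cells within cluster 17 differed in their claudins, which is given as values without a test. In its avil cells cldnh had 2758, 1780, 2283 and 3083 CPM by stage and in its mucin cells 5021, 4816, 5339 and 6191 CPM. The mucin gene muc5.1 had 2.41 to 7.20 CPM in the avil cells and 3259 to 6384 CPM in the mucin cells. Of the cells with aldh1a3, most of which came from 6 dpw, the 6, 5, 11 and 38 cells by stage held 286, 194, 733 and 1853 cldnh UMIs, or 8664, 11515, 7564 and 10133 CPM. Cells with atoh1a held 4, 1, 1 and 1 cldnh UMIs. The gene cldn7b had 628, 369, 351 and 444 CPM in the avil cells and 1092, 906, 1205 and 1425 CPM in the mucin cells. The gene cldnb had 3693, 2403, 2270 and 3319 CPM in the avil cells and 5181, 3533, 4242 and 5408 CPM in the mucin cells. Both were thus higher in the mucin cells of each library, and values of cluster 17 as a whole are those of a mixture.

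Of 17 claudins tested between cluster 17 and keratinocyte-like cells, 1 was higher, 8 were lower and 8 were not called, where 23.5% of all 11888 genes tested were higher and 26.4% lower (50% in either direction). The limit set by the filter on low counts held here too, for the claudins and for the partner genes. The median log2 fold change of the 17 claudins was -0.29, against 0.0042 over all genes tested. This comparison depended on the scaling, as the test used TMM factors while CPM does not. Without TMM factors the median of all genes was 0.59, with 5518 genes higher and 1651 lower, against 2797 higher and 3143 lower with them, and 4 claudins were higher, 5 lower and 8 not called. The genes cldni and cldn1 were far lower in cluster 17, with log2 fold changes of -5.41 ± 0.37 for cldni and -5.37 ± 0.30 for cldn1. The gene cldna had 450, 234, 276 and 432 CPM in cluster 17, against 1382, 853, 1064 and 1318 CPM in keratinocyte-like cells (log2 fold change -2.34 ± 0.13). The genes cldne and cldn23a fell by 1.81 and 1.91 on the log2 scale. The calls of cldnh, cldni, cldn1, cldna, cldne and cldn23a held without TMM factors. Cldnb was close in both classes, with 3928, 2451, 2644 and 3217 CPM in cluster 17, against 4861, 2082, 2564 and 3429 CPM in keratinocyte-like cells. It was called lower (log2 fold change -0.61 ± 0.13, adjusted p = 0.0019), as were cldn7b (-0.35 ± 0.13, adjusted p = 0.043) and cldnc (-1.93 ± 0.72, adjusted p = 0.044), but these 3 calls were lost without the replicate block, and also without TMM factors, where cldnb was at -0.027, cldnc at -1.37 and cldn7b turned to 0.23. The gene cldn7b had 754, 471, 564 and 590 CPM in cluster 17, against 797, 389, 390 and 512 CPM in keratinocyte-like cells, so that in CPM it was higher in cluster 17 in each wound library. In the clustering without integration cldnb, cldn7b and cldn23a turned to 0.19, 0.86 and 0.23. The gene cldn23b (0.060 ± 0.15) and cldnf (0.11 ± 0.20), both superficial genes among the keratinocyte-like cells, were not called between cluster 17 and keratinocyte-like cells as a whole. Both were called higher without TMM factors (0.65 and 0.70), as was cldnd1a (1.53). The genes cldn12, cldn17, cldnk, cldnd1b and cldn5b were not called with either scaling.

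Among the partner genes 27 were tested in cluster 17, of which 4 were higher, 13 lower and 10 not called, beside the 23.5% of all genes that were higher and 26.4% that were lower. Without TMM factors 10 were higher, 4 lower and 13 not called. Grhl2b had 27.2, 29.2, 40.0 and 44.3 CPM in cluster 17, against 2.99, 6.02, 4.53 and 3.30 CPM in keratinocyte-like cells (log2 fold change 2.54 ± 0.22). The gene grhl3 had 20.02, 5.08, 11.4 and 22.5 CPM in cluster 17, against 133, 68.8, 96.3 and 114 CPM in keratinocyte-like cells (log2 fold change -3.38 ± 0.18). The gene grhl1 was lower as well (-2.10 ± 0.26) and grhl2a was not called (-0.39 ± 0.26, adjusted p = 0.24), so that grhl2b alone among the 4 Grainyhead-like genes tested was called higher. The calls of grhl2b, grhl3, grhl1, cgnb and cgna held without TMM factors. Of the cingulin genes, cgnb was higher (1.44 ± 0.18) and cgna was lower (-2.17 ± 0.18) in cluster 17. The calls of grhl2b and cgnb turned round in single-cell classes (-2.39 and -1.73), where the mucous-like class was not the same set of cells as cluster 17.

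Endothelial-like cells were marked by the cldn5 pair, whose mammalian counterpart closes the junctions of blood vessels. Cldn5b had 1613, 1609, 2131 and 3436 CPM in endothelial-like cells of unwounded skin and wounds at 2, 4 and 6 dpw, against 3.06, 5.80, 4.2 and 4.16 CPM in fibroblast-like cells. The log2 fold change was 8.78 ± 0.37 (edgeR quasi-likelihood test, adjusted p = 6.9e-08), and 67.3% of all cldn5b UMIs were in endothelial-like cells. The gene cldn5a was much sparser, with 109, 31.5, 56.3 and 71.7 CPM in endothelial-like cells, against 7.66, 3.72, 5.73 and 4.40 CPM in fibroblast-like cells (log2 fold change 3.39 ± 0.24, adjusted p = 1.2e-06). At 500 UMIs per cell 58.9% of endothelial-like cells had a cldn5b UMI, against 0.21% of red blood cell-like cells, and 86.9% and 0.351% without thinning, at median depths of 2442.5 and 790.5 UMIs. Further cldn5b was in cluster 32, whose 179 cells carried endothelial and mural markers together and had 1020, 1548, 2050 and 3264 CPM. Cluster 34, led by the thrombocyte gene itga2b, had 0, 19, 33 and 1 UMIs of cldn5b. Mural-like cells had 0, 41, 42 and 9 UMIs.

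Of 15 claudins tested between endothelial-like and fibroblast-like cells, 4 were higher, 2 lower and 9 not called, where 18.8% of all 9575 genes tested were higher and 20.7% lower (39.5% in either direction). The limit set by the filter on low counts held here too, for the claudins and for the partner genes. The median log2 fold change of the 15 claudins was 0.62, against -0.051 over all genes tested. The other genes called higher were cldna (log2 fold change 1.21 ± 0.25) and cldnb (0.99 ± 0.24), the abundant genes of keratinocytes. Cldna had 140, 22.8, 20.7 and 80.2 CPM in endothelial-like cells, and the 172, 51.0, 21.5 and 227 CPM in red blood cell-like cells were not lower in any library. Cldnb had 1013, 55.0, 37.4 and 138 CPM in endothelial-like cells, of which only the value in unwounded skin, from 44 cells, exceeded that in red blood cell-like cells. Both calls were lost without the replicate block (0.72 for cldna and 1.04 for cldnb). Both turned round in single-cell classes (-0.44 and -0.50).

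The gene cldn19, a claudin of Schwann cell junctions in mammals, had 7.79 CPM from 1 UMI in endothelial-like cells of unwounded skin and 0 UMIs in those of each wound library, against 28.0, 9.08, 5.16 and 9.79 CPM in fibroblast-like cells (log2 fold change -5.27 ± 0.75). It passed the filter on low counts only through the fibroblast-like cells and so had to come out lower, which makes its call a description. The gene cldn7a had 62.4, 2.01, 4.02 and 16.3 CPM in endothelial-like cells, against 95.6, 32, 10.4 and 23.8 CPM in fibroblast-like cells (log2 fold change -1.57 ± 0.41, adjusted p = 0.011), a call that was lost without the replicate block (-1.94). Of 17 partner genes tested, 6 were higher, 1 was lower and 10 were not called, where 18.8% of all genes were higher and 20.7% lower. Without TMM factors 9 were higher, 1 lower and 7 not called, and in the clustering without integration 14 were called. The genes that were higher were the adhesion genes esama (log2 fold change 6.88 ± 0.54), jam2a (5.79 ± 0.42) and jam3a (1.05 ± 0.38, adjusted p = 0.047) and the scaffold genes cgnl1 (2.65 ± 0.25), tjp1a (2.21 ± 0.21) and tjp2b (1.81 ± 0.37). The call of jam3a was lost in 8 alternatives, among them no replicate block, and kept in 6, with adjusted p of 1.2e-05 to 0.27 over them. Tjp1a, the other ZO-1 gene of zebrafish, had 288, 187, 203 and 240 CPM in endothelial-like cells, against 38.5, 40.3, 49.5 and 42.6 CPM in fibroblast-like cells. The gene marveld1 was lower (-1.48 ± 0.24).

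Glial-like cells carried cldnk, a claudin of myelin-forming glia in zebrafish, and cldn19. Cldnk had 133, 455, 324 and 319 CPM in glial-like cells of the 4 libraries by stage, and cldn19 had 50.7, 111, 140 and 110 CPM. Glial-like cells, the class of its highest level, held 35.3% of the 728 cldn19 UMIs, while the more numerous fibroblast-like cells held 54.5%. Of the 1385 cldnk UMIs 53.1% were in glial-like cells and 35.9% in keratinocyte-like cells, where superficial cells had 15.1, 16.8, 15.8 and 19.1 CPM, against 1.84, 1.51, 0 and 1.08 CPM in basal cells. No more than 1.51 CPM of cldnk was found in red blood cell-like cells of any library. The gene cldn12 was spread widely, with 49.9 CPM in glial-like, its highest class, 40.3 CPM in superficial, 24.4 CPM in macrophage-like and 9.19 CPM in basal cells.

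In fibroblast-like cells the levels were low. The gene cldn7a had its highest level in cluster 19 (vcana, mgp), with 241, 139, 52.9 and 119 CPM by stage. The gene cldn19 was found in cluster 5 (aqp3b, clu), with 53.5, 16.3, 12.1 and 21.3 CPM. The gene cldn11b had 17.8 CPM in endothelial-like cells, its highest class, while 51.0% of its 621 UMIs were in fibroblast-like cells. Cldnd1b (480 UMIs), cldn17 (469 UMIs) and cldnd1a (439 UMIs) had at most 5.21 CPM in any named class, highest for cldnd1a in cluster 17, for cldnd1b in cluster 17 at 4.41 CPM and for cldn17 in endothelial-like cells at 4.61 CPM. Among the 7 genes with fewer than 200 UMIs in kept cells, cldn15lb had 14.4 CPM in neutrophil-like cells from 5, 29, 5 and 1 UMIs by stage. The gene cldn18 had 31 UMIs, of which 96.8% were in keratinocyte-like cells, and cldn15la had 22 UMIs, of which 77.3% were in fibroblast-like cells. The gene cldn15a (155 UMIs) was highest in mural-like cells at 1.79 CPM and cldn10b (56 UMIs) in glial-like cells at 1.25 CPM. The gene cldnd (124 UMIs) and cldng (87 UMIs) had their highest named class in red blood cell-like cells, at 5.25 and 1.43 CPM.

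Part of cldn11a came from cells of an unnamed cluster in 1 library. Over all cells cldn11a had 2.61, 3.28, 41.2 and 16.7 CPM by stage. Of its 2193 UMIs at 4 dpw 1445 were in 61 of the 351 cells of cluster 11 in that library, and cluster 11 had 0 UMIs of cldn11a in the other libraries. Without cluster 11 the levels were 2.63, 3.32, 14.4 and 17 CPM. The same 61 cells held 231 UMIs of cyp19a1a, the ovarian aromatase, or 84.3% of those in the 4 libraries, which had 1, 5, 267 and 1 UMIs by stage. Of the other 6 follicle genes looked up, they held 77.9% of the UMIs of the steroid enzyme gene hsd17b1, 60% of foxl2b, 52.9% of gsdf, 39.1% of hsd3b1, 18.2% of foxl2a and 16.1% of amh. The gene gsdf had 97, 20, 418 and 40 UMIs by stage and amh 16, 20, 38 and 19, so that these were not limited to the 4 dpw library. None of 8 oocyte genes had more than 1 UMI in those 61 cells, but the other cells of cluster 11 at 4 dpw held some, as the cluster had 29 UMIs of org, 14 of zar1 and 8 of zp3b in that library. For cldnd and cldng, 2 other cells of cluster 11 at 4 dpw, neither among the 61, held 49 of the 124 cldnd UMIs and 47 of the 87 cldng UMIs. These gonadal genes were looked up after the values of cldn11a were seen, and their part in the result was not tested.

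By stage, 8 claudins, among them cldnb, cldne and cldn23a, were lower in keratinocyte-like cells at 2 dpw than in those of unwounded skin, while cldni and cldn1 were higher, and fewer were called at 4 and 6 dpw. A ratio to unwounded skin was called where its exact 95% interval, which covers counting error only, lay wholly beyond 1.5-fold. Of 14 claudins with most UMIs in keratinocyte-like cells, 2 were called higher and 8 lower at 2 dpw, where 10.9% of 9151 genes were higher and 7.58% lower. At 4 dpw 0 were higher and 7 lower, where 6.04% of genes were higher and 6.29% lower, and at 6 dpw 0 were higher and 3 lower, where 2.88% of genes were higher and 5.16% lower. These claudins had 200 or more UMIs over all kept cells, while the background genes had 200 or more in the class, which cldn17, cldnd1a and cldnc did not reach. Intervals of counting error are narrower for abundant genes, which are therefore called more readily, and the shares were not matched for this. The median ratios of the 14 claudins at 2, 4 and 6 dpw were 0.594, 0.588 and 0.780. With the clusters of the class weighted as in unwounded skin, 0 of the 2 higher and 5 of the 8 lower claudins stayed beyond 1.5-fold at 2 dpw, 7 of 7 at 4 dpw and 2 of 3 at 6 dpw, and the median ratios were 0.816, 0.668 and 0.836. With TMM factors over the libraries of the class, 1 was higher and 8 lower at 2 dpw, 7 lower at 4 dpw and 1 lower at 6 dpw, as the calls of cldni at 2 dpw (1.40) and of cldn7b (0.714) and cldn23a (0.684) at 6 dpw were lost. The same counts at 4 and 6 dpw, and 1 higher and 7 lower at 2 dpw, were found without the 5% of cells with most UMIs. All claudins together had 10455, 6788, 6292 and 7860 CPM in keratinocyte-like cells by stage. The unnamed cluster 9 (1136 cells, with krt94 and jac4 among its leading genes) carried only 2 keratinocyte markers and was not part of the class. Its claudins together had 4544, 4576, 4241 and 5034 CPM by stage.

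Cldnb had 4861, 2082, 2564 and 3429 CPM in keratinocyte-like cells by stage, which gave ratios to unwounded skin of 0.428 (95% interval 0.424 to 0.433) at 2 dpw, 0.528 at 4 dpw and 0.706 at 6 dpw. Cldne had 1207, 443, 513 and 907 CPM, with ratios of 0.367, 0.425 and 0.751. Cldn23a had 147, 46.4, 54.0 and 90.4 CPM, with ratios of 0.315, 0.367 and 0.615. In the class as a whole the lowest level of cldnb, cldne and cldn23a was at 2 dpw, and the level at 6 dpw was below that of unwounded skin. With clusters weighted as in unwounded skin each was lowest at 4 dpw, with ratios of 0.606, 0.540 and 0.479. The gene cldn7b had 797, 389, 390 and 512 CPM and was called lower at each wound stage, a call that at 6 dpw was lost in 4 alternatives with ratios of 0.656 to 0.714. The gene cldnf, with 22.5, 6.82, 7.53 and 10.9 CPM, was called lower at each stage as well, as was cldn23a, whose weighted ratio of 0.732 at 6 dpw was not beyond 1.5-fold. The gene cldna was called lower at 2 dpw only, with 1382, 853, 1064 and 1318 CPM. The gene cldn23b, with 61.0, 21.1, 23.1 and 38.6 CPM, was called lower at 2 and 4 dpw, and cldn12, with 32.7, 18.7, 21.2 and 25.3 CPM, at 2 dpw. The gene cldnc was called lower at 4 dpw, with 67, 36, 5 and 60 UMIs by stage.

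The make-up of the keratinocyte-like class, which left out cluster 9 with its 172, 444, 274 and 246 cells by stage, moved with the stage. By stage basal cells were 13, 28, 23.2 and 13.6% of the class, while cluster 13 was 15.2, 6.6, 7.58 and 15.0% and the superficial cluster 16 was 13, 6.94, 9.57 and 11.3% of it. With the UMIs of the 8 clusters weighted as in unwounded skin, the ratios at 2 dpw were 0.626 for cldnb, 0.624 for cldne, 0.577 for cldn23a and 0.698 for cldn7b, nearer to 1 than without weights. Those of cldna and cldn12 were 0.859 and 0.773, and with cldn7b these were the genes that no longer lay beyond 1.5-fold at 2 dpw. Within clusters cldnb was below unwounded skin in 8 of 8 clusters at 2 dpw and at 4 dpw, with 5 called lower at each stage. Cldne, cldn7b and cldn23a were also below unwounded skin in 8 of 8 clusters at 2 and 4 dpw. The gene cldna was below it in 6 and above it in 2 of the clusters at 2 dpw, and cldn12 was below it in 8 with 0 called. In superficial cells themselves cldne had 5031, 3088, 2886 and 4386 CPM. Cldnb in red blood cell-like cells, the gauge of free RNA, had 831, 210, 106 and 539 CPM and was also lower at 2 and 4 dpw. The part of free RNA in these ratios was not tested.

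**Figure D3:**
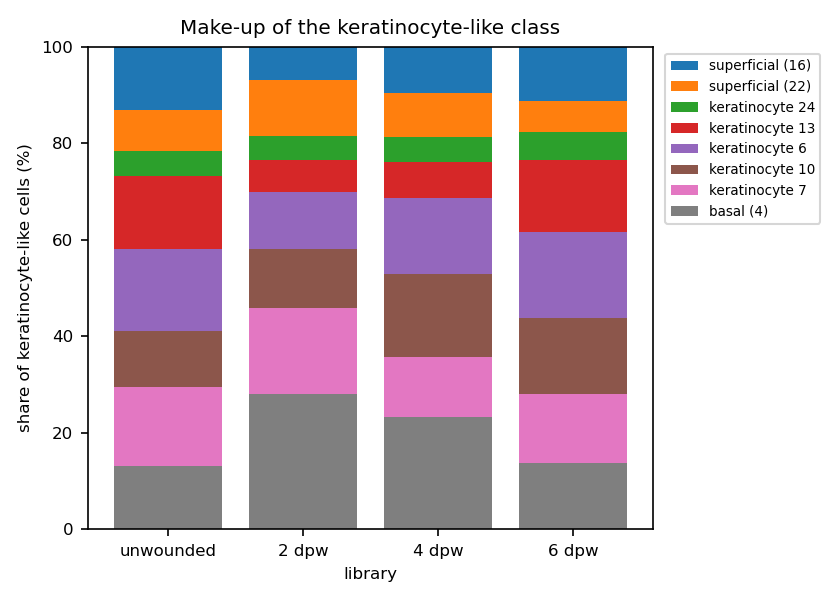
Share of keratinocyte-like cells, in percent, taken by each of the 8 clusters in the 4 libraries, from unwounded skin to 6 dpw. The basal cluster takes 28% at 2 dpw and 23.2% at 4 dpw, against 13% in unwounded skin, and cluster 13 takes 6.6% and 7.58%, against 15.2%.

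Cldni and cldn1 followed another course. Cldni had 1684, 2577, 1448 and 1322 CPM in keratinocyte-like cells by stage, with a ratio of 1.53 (1.51 to 1.55) at 2 dpw that was called higher, close to the limit of 1.5-fold. The call was lost with TMM factors (1.40), without integration (1.51) and without the 5% of cells with most UMIs (1.43). Within basal cells, however, cldni had 6098, 4003, 3832 and 4938 CPM, and within cluster 7 it had 8200, 5961, 5070 and 6913 CPM, so that each wound library lay below unwounded skin in both. The ratio at 2 dpw turned to 0.897 with the clusters weighted as in unwounded skin. In clusters 6, 10, 13 and 24 cldni was called higher at 2 and 4 dpw, and in clusters 13 and 24 at 6 dpw as well. At 4 dpw cldni was called lower in 3 of the 8 clusters, namely basal cells, cluster 7 and a superficial cluster, where the ratio was 0.119. It had 456, 1487, 988 and 379 CPM in cluster 10, with ratios of 3.26 at 2 dpw and 2.17 at 4 dpw, 47.7, 345, 168 and 38.8 CPM in cluster 6 and 66.4, 144, 135 and 124 CPM in cluster 13. In cluster 24 it had 361, 2546, 1282 and 988 CPM, with a ratio of 7.06 at 2 dpw. Cldni in red blood cell-like cells, as a gauge of free RNA, had 242, 165, 47.2 and 139 CPM and was lower in each wound library than in unwounded skin. The share of cells of cluster 10 with a cldni UMI was 11.9, 41.8, 34.8 and 13.6% by stage at 500 UMIs per cell, against 13.8, 8.87, 5.70 and 9.21% in red blood cell-like cells.

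Cldn1 had 109, 279, 145 and 97.3 CPM in keratinocyte-like cells by stage, with a ratio of 2.55 (2.43 to 2.67) at 2 dpw. Within basal cells it had 554, 669, 618 and 596 CPM, and the ratio weighted by clusters was 1.15 at 2 dpw. In cluster 10 cldn1 had 22, 183, 126 and 20 UMIs by stage, or 5.32, 56.5, 30.3 and 2.83 CPM, with ratios of 10.6 (6.80 to 17.3) at 2 dpw and 5.69 (3.60 to 9.41) at 4 dpw. In cluster 6 it had 10, 31, 20 and 17 UMIs, with ratios of 6.51 and 3.68. Cldni and cldn1 were thus both called higher in clusters 6 and 10 at 2 and 4 dpw, and neither was called higher there at 6 dpw.

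The cells within these clusters were not alike at each stage. Without integration 211, 21, 53 and 340 cells of cluster 10 by stage lay in a cluster led by apnl, and 8, 150, 154 and 22 cells lay in another led by genes such as jac4 and krt17, so that the level in cluster 10 was mostly that of other cells in wounds at 2 dpw than in unwounded skin. The whole cluster led by genes such as jac4 held 23, 645, 434 and 47 cells by stage, so that cluster 10 had only a part of it. The gene cldni had 422, 350, 928 and 330 CPM in the apnl cells and 1309, 1660, 1063 and 1356 CPM in the jac4 cells. At 2 dpw it was thus lower than in unwounded skin in the apnl cells and higher in the jac4 cells, of which unwounded skin had only 8, and at 4 dpw it was higher in the apnl cells and lower in the jac4 cells. The share of jac4 cells and the level of cldni within each kind of cell both moved with the stage, and their parts in the level of cluster 10 were not tested. The gene cldn1 had 11, 1, 8 and 11 UMIs in the apnl cells and 0, 165, 109 and 6 UMIs in the jac4 cells. In cluster 24 the jac4 cells were 1, 41, 26 and 3 by stage and held 18, 1255, 237 and 18 cldni UMIs. Its apnl cells had 808, 488, 1115 and 2271 CPM of cldni, and the 13, 16, 9 and 19 cells that lay in a cluster led by malb had 22.7, 1247, 1218 and 172 CPM. In cluster 6, where 169, 106, 140 and 288 cells were apnl cells, cldni had 50.8, 142, 163 and 41.5 CPM in them, higher at 2 and 4 dpw than in unwounded skin. Cldn1 rested in these apnl cells on 5, 10, 2 and 2 UMIs, or 1.98, 5.92, 0.956 and 0.515 CPM. Most cldn1 UMIs of cluster 6 in each wound library thus lay in its other cells. At 2 dpw 37 cells of cluster 6 lay in the cluster led by malb and held 224 cldni UMIs, against 240 in the 106 apnl cells. In these malb cells cldni had 28.9, 359, 40.7 and 8.51 CPM by stage. In cluster 13, where 324, 75, 74 and 361 of 334, 99, 99 and 382 cells stayed together, cldni had 57.8, 90.0, 167 and 126 CPM in those cells. A further 16 of its cells at 2 dpw were apnl cells and held 85 cldni UMIs, against 100 in the 75. This division of the clusters was chosen after seeing the data. Cells that hold RNA of a basal and an upper cell in 1 droplet were not removed from these clusters, and their part in these values was not tested.

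**Figure D4:**
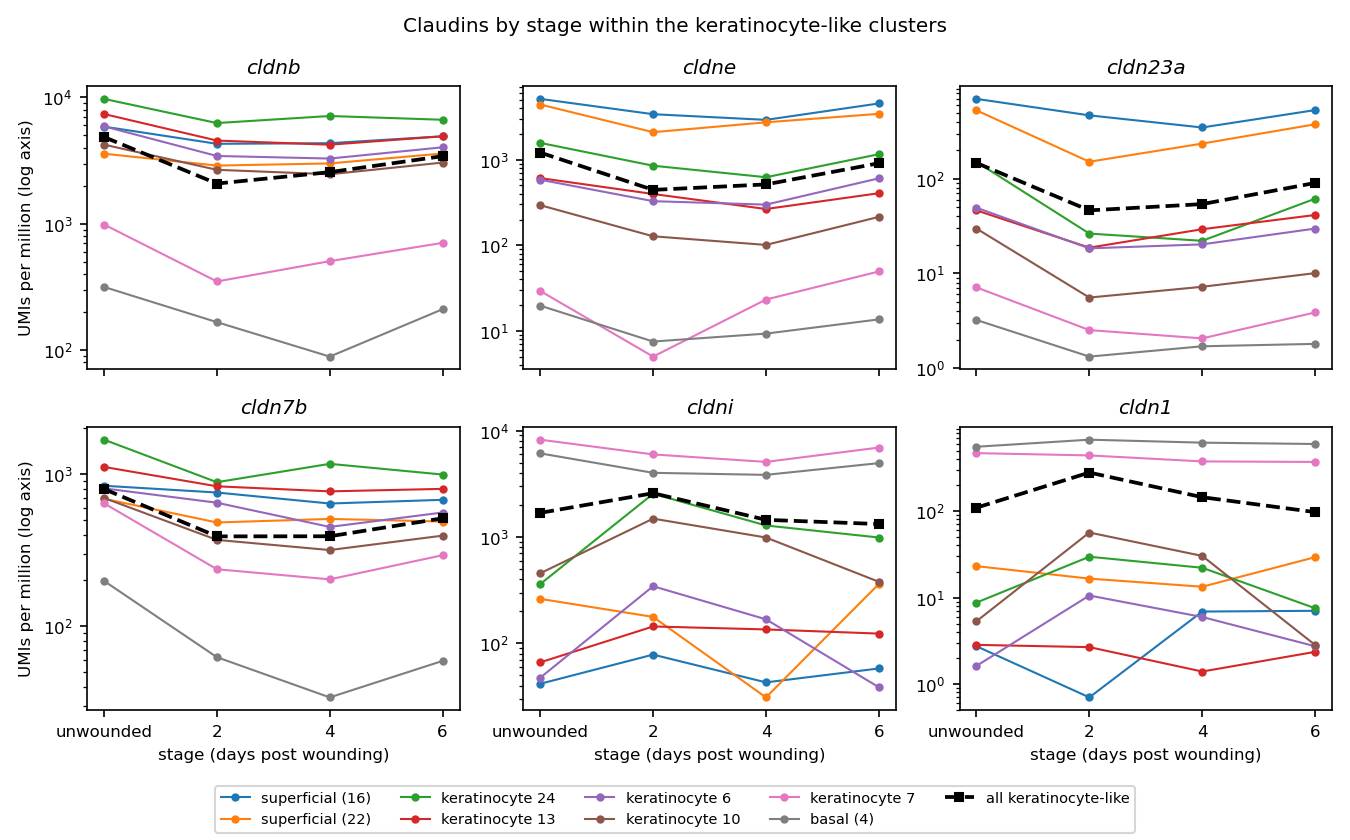
Level of 6 claudin genes in CPM (log axis) from unwounded skin to 6 dpw in each of the 8 keratinocyte-like clusters (coloured lines) and in all keratinocyte-like cells (black dashed line). A cluster with 0 UMIs stands at the floor of 3 UMIs. The genes cldnb, cldne, cldn23a and cldn7b lie below unwounded skin at 2 and 4 dpw in each cluster, whereas cldni and cldn1 lie higher at 2 dpw in clusters 6, 10 and 24.

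Outside the keratinocytes 8 claudins were compared by stage, each in the class with most of its UMIs. The gene cldnh in cluster 17 had ratios to unwounded skin of 0.716, 1.05 and 1.22 at 2, 4 and 6 dpw, and none was called. Of 2569 genes in this cluster 2.26, 2.53 and 2.84% were called higher and 4.09, 2.57 and 2.84% lower at these stages. In endothelial-like cells cldn5b was called higher at 6 dpw, with a ratio of 2.13 (1.85 to 2.46), where 3.67, 2.66 and 2.52% of 2179 genes were higher at 2, 4 and 6 dpw and 4.82, 3.58 and 4.04% lower. In single-cell classes the ratio at 6 dpw was 1.38 and not called. Its ratios of 0.997 at 2 dpw and 1.32 at 4 dpw were not called. The 207, 2401, 3706 and 4843 UMIs of cldn5b came from 44, 304, 440 and 358 endothelial-like cells. In cluster 32, which had only 10 cells in unwounded skin, the ratios of cldn5b were 1.52, 2.01 and 3.20, and those at 4 and 6 dpw were called. Over all cells the ratios of cldn5b were 7.55, 13.6 and 15.0, and wounds held more endothelial-like cells than the scraped skin. The gene cldn5a was called lower at 2 dpw, with a ratio of 0.289 (0.156 to 0.568) from 14 UMIs in unwounded skin.

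In fibroblast-like cells cldn7a was lower at each wound stage, with 437, 215, 164 and 309 UMIs by stage and ratios of 0.335, 0.109 and 0.249. It was called lower at 4 and 6 dpw in each of clusters 1, 5 and 19. The gene cldn19 was lower at each stage as well, with ratios of 0.324, 0.184 and 0.350. Of all 7823 genes 8.86, 14.3 and 9.05% were called lower in fibroblast-like cells at 2, 4 and 6 dpw. Cldn11a was called higher at 6 dpw, with 23.2, 21.9, 32.5 and 66.9 CPM by stage and a ratio of 2.89 (2.36 to 3.57), where 10.3, 10.6 and 7.64% of genes were higher at 2, 4 and 6 dpw. This rested on cluster 1 (thbs4b, ogna), in which cldn11a had 12, 116, 291 and 831 UMIs, or 9.01, 42.3, 26.3 and 134 CPM, while cluster 5 had 35.3, 6.07, 45.4 and 2.84 CPM. Without integration 16, 88, 648 and 566 cells of cluster 1 lay in a cluster led by ucmaa and thbs4b, so that few of its 193 cells in unwounded skin were of that kind. In these cells cldn11a had 2, 103, 269 and 800 UMIs, or 14.6, 76.2, 27.4 and 154 CPM. The gene cldn11b had 5.25, 7.89, 8.85 and 7.79 CPM, and no ratio was called.

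In glial-like cells the ratios of cldnk to unwounded skin were 3.41, 2.43 and 2.39 at 2, 4 and 6 dpw, and all were called higher, where 11.4, 12.5 and 9.76% of 1373 genes were higher and 11.4, 9.83 and 5.24% lower. The 94 glial-like cells of unwounded skin had a median of 4224 UMIs, against 1119.5 to 1465 UMIs in the wounds. The direction of cldnk turned round with other ways to define the class, with ratios of 0.815, 0.771 and 0.815 in a clustering without integration and of 0.636, 0.444 and 0.782 in single-cell classes. Without integration a separate pigment cluster held 63, 36, 46 and 57 cells by stage, with a median of 7236.5 UMIs. The glial-like clusters there held 25, 131, 167 and 114 cells and 24, 53, 75 and 58 cells. How many pigment cells lay in the glial-like class, and their part in these ratios, was not tested.

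**Figure D5:**
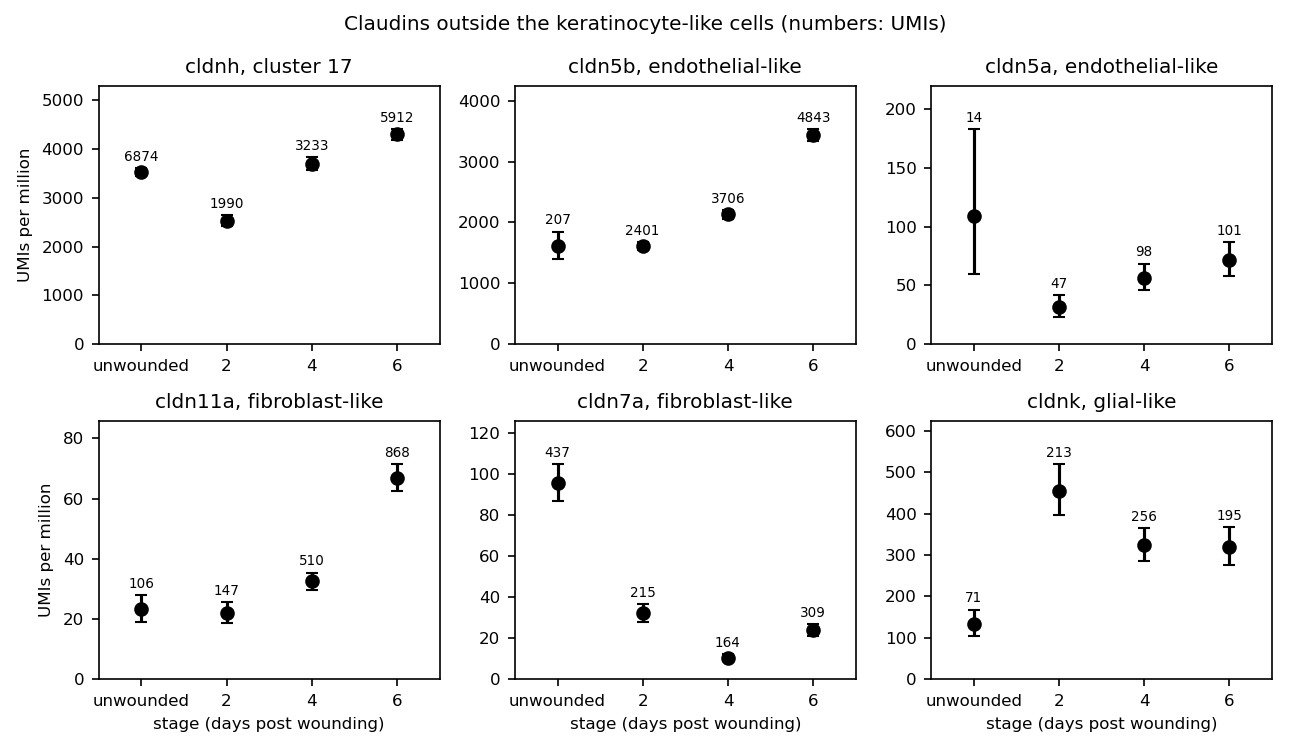
Level in CPM of cldnh in cluster 17, cldn5b and cldn5a in endothelial-like, cldn11a and cldn7a in fibroblast-like and cldnk in glial-like cells, from unwounded skin to 6 dpw. Bars are exact 95% Poisson intervals, which cover counting error only, and the number above each point is the UMIs it rests on. Cldn5b and cldn11a are highest at 6 dpw, and cldn7a is highest in unwounded skin.

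Some of the claudins lie side by side in the genome. Only protein-coding genes were counted as neighbours. In the RefSeq annotation of the GRCz12tu assembly 29 of the 34 symbols were matched. The symbols cldn17, cldn23a, cldn23b, cldnc and cldnh were not, so whether they have claudin neighbours is not known here. On chromosome 15 cldnj, cldne, cldnf and cldna follow each other with no other protein-coding gene between them. Cldne, cldnf and cldna were each higher in superficial than in basal cells, and cldnj stayed under 20 UMIs. The genes cldnb and cldnd lie in a run of 7 claudin genes on chromosome 21, and cldn10b is next to cldn10l2 on chromosome 9. The genes cldni on chromosome 3 and cldn1 on chromosome 2, both higher in basal than in superficial cells, have no claudin as a direct neighbour. Neither do cldn7b, cldn12, cldnk and cldnd1b, which were higher in superficial cells, as were 11 of the 14 claudins tested. Position and layer are thus not shown to go together. Neighbouring claudins that are alike in sequence could share or lose reads in the deposited counts, which was not tested.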

How the data were processed

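The deposited files held raw UMI counts per gene and cell, made by the authors with Cell Ranger 6.1.2 from 10x 3' version 3.1 libraries; the processing notes name GRCz11 and Seurat 4.3.0. They were used as deposited. Cells with 500 to 30000 UMIs, 200 to 4500 genes and under 25% mitochondrial UMIs were kept, of 7320, 9686, 8904 and 10329 cells by stage, with 54723378, 87234983, 75814818 and 68858323 UMIs. Libraries were integrated with Seurat 5.3.0 on 3500 genes less claudins and their partners (3472 used) and clustered with 17 dimensions at resolution 1 into 38 clusters. A name needed 3 or more markers from a list and more than from any other list. It was refused where more of the 10 leading genes belonged to another list. This left cluster 7 without a layer and clusters 26 and 32 without a class. A shallow cluster with no leading gene from its list was to stay unnamed as well. Epidermal classes needed epcam no lower than in other cells, a rule added after the clusters were seen, which left cluster 23 unnamed. UMIs were summed per library and class and tested with edgeR 4.0.16 (filterByExpr, TMM, quasi-likelihood test, Benjamini-Hochberg over all genes, 0.05) with the library as a block. The classes come from other genes of the same cells, and libraries are single pools, so p-values measure only the spread over 4 libraries. Same-numbered sums share the pooled fish; their deviations correlated at 0.141 to 0.415, each best with its own library. Stage ratios used exact conditional 95% intervals and a floor of 3 UMIs for 0; genes with 200 or more UMIs in the class were the background. Genes named were those with 20 or more UMIs, and those with 200 or more in kept cells were given in detail; partner genes were named where they had 200 or more UMIs and passed the test of the comparison described, and lsr and tjp2a between superficial and basal cells and grhl2a in cluster 17, named without a call there, are the exceptions. Counts were simulated for superficial against basal cells with the same dispersion for all genes and no effect of the library. On these the test recovered 87.1% of 93 genes changed by 1 and 98.9% of 93 changed by 2 (log2) among 7910 genes. It called 7 of 7724 unchanged genes. Recovery on the real counts, which share effects of the library, can differ. Members and lists were chosen with earlier results of these data known. Alternatives were DESeq2 1.42.0, other size factors, library sizes without TMM factors (added after seeing the data), no filter, no block, left-out libraries, other cell limits, a clustering without integration and classes from single-cell markers; those on single clusters were chosen after seeing the data. Of the barcodes shared by libraries 78 were in kept cells. The authors' cell annotation was not used here. Python 3.11.15, scanpy 1.11.5 and R 4.3.3 were used.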

Additional observations from a re-analysis of the deposited data

How the results depend on the processing

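Of 22 claudins 18 had the same class of highest level without integration, 15 in classes from single-cell markers and 21 or 22 in the other alternatives. Of the recomputed stage ratios 391 moved by less than their counting error, 106 by more and 7 turned round. The calls with the library as a replicate block paired the sums by library. With no replicate block 4685, 5395 and 2947 genes were called between superficial and basal, mucous-like and keratinocyte-like, and endothelial-like and fibroblast-like cells, against 4939, 5940 and 3782 with it, and the partner genes called between mucous-like and keratinocyte-like cells came to 10, against 17. Leaving out 1 library gave 4164 to 4760, 4927 to 5544 and 2703 to 4493 genes. The clustering without integration gave 2596 genes and 11 partner genes for mucous-like against keratinocyte-like cells and 14 partner genes, against 7, for endothelial-like against fibroblast-like cells, and single-cell classes gave 3923 genes for mucous-like against keratinocyte-like cells. The 7 stage ratios of claudins called higher came to 3 in the clustering without integration and to 3 in single-cell classes. Those of cldnk were lost in both, along with cldni at 2 dpw in the first and cldn5b at 6 dpw in the second. With the classes used throughout, 25 ratios were called lower. Of these, 8, 7 and 3 were in keratinocyte-like cells at 2, 4 and 6 dpw, against 6, 7 and 2 in single-cell classes.

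Values that turned round in mucous-like against keratinocyte-like cells without integration were oclnb (0.72), crb3b (1.38), marveld1 (0.015), oclna (0.071), tjp3 (0.24), tjp1b (0.51), cldnb (0.19), cldn23a (0.23) and cldn7b (0.86). In single-cell classes they were marveld2b (-2.62), cgnb (-1.73), grhl2b (-2.39) and cxadr (-3.07), and, for endothelial-like against fibroblast-like cells, cldna (-0.44) and cldnb (-0.50). The stage ratios of cldnk turned to 0.815, 0.771 and 0.815 without integration and to 0.636, 0.444 and 0.782 in single-cell classes, and that of cldni at 2 dpw to 0.897 with clusters weighted as in unwounded skin. The cause was not tested. Without TMM factors, a scaling chosen after seeing the data, cldn7b (0.23), oclna (0.25), tjp3 (0.0090) and tjp1b (0.034) turned round in mucous-like against keratinocyte-like cells, where the median of all genes moved to 0.59. DESeq2-type size factors moved the median log2 fold change of endothelial-like against fibroblast-like cells to -0.16, against -0.051. Depth limits the genes under 200 UMIs and the 44 endothelial-like cells of unwounded skin.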
